A study of Mus musculus with 20 samples.

Results

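The genes described here build the first signalling steps behind the receptor for bacterial lipopolysaccharide (LPS). They are Cd14, Ly96, the adaptors Myd88, Tirap, Ticam1 and Ticam2, and the kinases Irak1, Irak2, Irak3 and Irak4. All 10 were chosen by gene symbol, were listed in the deposited count table of 33243 genes, and were among the 16632 genes with a total of at least 10 reads that entered the tests. They were read in 20 bulk RNA sequencing libraries of macrophages sorted from the dura mater of 10 mice, called dural CNS-associated macrophages (dCAMs).

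Every mouse carried 1 CreERT2 allele at the Ccr2 locus and was homozygous for the tdTomato reporter at Rosa26 (Ccr2creERT2/+ R26tdT/tdT). Every mouse, the controls included, had been depleted of macrophages by 7 daily doses of 200 mg per kg BLZ945, which blocks CSF1R. Doses of 2 mg tamoxifen followed on the last of these days and 2 and 4 days after it, so that cells expressing Ccr2 at that time became tdT+. At 8 weeks the mice were injected with LPS at 2.5 mg per kg or with PBS (CTL), and the dura was taken 12 h later. Mice of both sexes were 10 ± 3 weeks old at the first BLZ945 dose according to the methods, and the F or M in the library titles counts 3 F and 2 M mice for CTL and 2 F and 3 M for LPS. From each mouse the CD45int CD11b+ CD206int-high gate was split into a tdT+ and a tdT- library, giving 4 groups of 5. The reporter marks Ccr2 expression during the tamoxifen days, so that a tdT- cell is one that did not recombine, whatever its origin. The comparisons ask how each population responds to LPS, how the populations differ within each treatment, and whether their LPS responses differ. Libraries are named by population, treatment and mouse number (CTL mice 174, 175, 177, 178 and 179, LPS mice 54, 56, 59, 60 and 61).

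LPS is handed by the lipid-binding protein LBP to CD14, a surface and soluble co-receptor, which passes it to MD-2, the protein encoded by Ly96. MD-2 sits on the receptor TLR4 and holds the lipid, and the loaded receptor pairs up and recruits adaptors that share its TIR domain. TIRAP bridges the receptor to MyD88, which assembles with IRAK4, IRAK1 and IRAK2 and leads to NF-kappaB. TRAM (Ticam2) bridges the internalised receptor to TRIF (Ticam1), which leads to interferon. IRAK-M (Irak3) is a family member best known as a brake on this signal in macrophages.

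Library totals ran from 6017650 to 18925908 reads in genes, and LPS libraries (12073566 to 18925908) were mostly deeper than CTL libraries (6017650 to 12208203), and with every library thinned to the smallest total the calls of the 10 genes were as without thinning. The tdT- CTL libraries stood apart. Of the 5823 well-measured genes (mean log2 CPM 4 or more), they had 1.72% to 14.9% at 3 reads or fewer, against at most 0.635% in any other library, with the highest shares in mice 174 (14.8%), 177 (7.04%) and 179 (14.9%). All 10 macrophage markers (among them Mrc1, Csf1r and Adgre1) were above 3 reads in every library. Their summed level was lower after LPS, at 17190 to 36460 CPM in tdT- CTL and 9761 to 14320 CPM in tdT- LPS libraries. In tdT+ libraries it was 36030 to 43840 CPM in CTL and 12440 to 14560 CPM in LPS mice. Single markers moved either way. In tdT+ dCAMs the mean of Csf1r was 5992 CPM in CTL and 1416 CPM in LPS mice, and that of Itgam 190 and 1062 CPM. The part of these shifts in the values below was not tested. The sort was checked against other cell types too. The summed level of 8 neutrophil markers was 0.733 to 181 CPM in CTL and 244 to 823 CPM in LPS libraries. In LPS libraries it was carried mainly by S100a8 and Mmp8, and in tdT- also by Retnlg (mean 216 CPM, against 0.302 CPM in tdT+). S100a9 and Ngp had lower means in LPS than in CTL libraries of both populations. For S100a9 these were 0.917 against 3.62 CPM in tdT- and 0.236 against 4.33 CPM in tdT+. Camp had a lower mean after LPS in tdT- and a higher mean in tdT+ libraries. Ly6g averaged under 0.31 CPM in every group. The part of the neutrophil markers in the values below was not tested. The 5 fibroblast markers (among them Col1a1 and Dcn) summed to 10.9 to 3993 CPM in tdT- CTL, 128 to 336 CPM in tdT+ CTL, 56.7 to 333 CPM in tdT- LPS and 88.5 to 313 CPM in tdT+ LPS libraries, and their part was not tested either. The 6 monocyte markers summed to 1707 to 4341 CPM in CTL and to 1946 to 3850 CPM in LPS libraries. Fewer cells of a type and less RNA per cell cannot be told apart in bulk samples.

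Values are CPM, read counts scaled to a common library total with TMM factors, and differences are log2 fold changes with their standard error (SE) from 1 edgeR quasi-likelihood fit over all 20 libraries. A gene was called when its Benjamini-Hochberg adjusted p over all 16632 genes was under 0.05 and its absolute log2 fold change over 1. In tdT- dCAMs 1 of the 10 genes was called, Cd14, where 11.5% of all genes were called and 7.2% were called higher. In tdT+ dCAMs it was again 1 of 10, Cd14, against 5.89% of all genes called and 3.37% called higher. Both counts lie near the background, and the median log2 fold change of the 10 genes was 0.37 in tdT- and 0.38 in tdT+ dCAMs, beside 0.022 and 0.0084 over all genes tested. Among the 5823 well-measured genes 14.3% were called in tdT- and 10.8% in tdT+ dCAMs, and their median log2 fold changes were -0.0074 and 0.12.

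**Figure D1:**
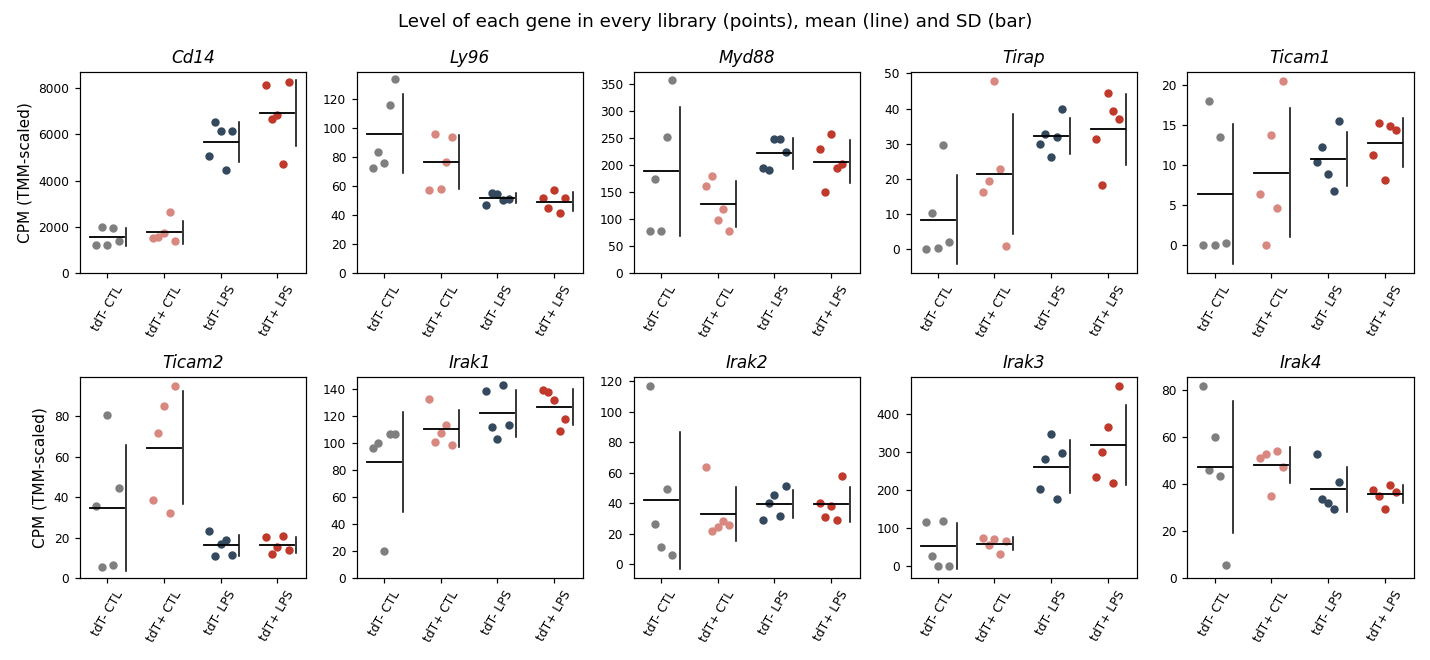
CPM (linear axis, a scale of its own in each panel) of each gene in the 4 groups; points are libraries, horizontal lines group means and vertical bars 1 SD (n = 5). Cd14 and Irak3 sit higher in every LPS library than in every CTL library of the same population, Ly96 sits lower, and the tdT- CTL points of most other genes spread widely.

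Cd14 was the most abundant of the 10 genes in CPM and in CPM per kilobase of merged exons, at the 99.9th percentile of all genes tested by mean level. In tdT- CTL libraries it stood at 1207, 2003, 1224, 1952 and 1378 CPM (mice 174, 175, 177, 178 and 179), and in tdT- LPS libraries at 5075, 6557, 6149, 4461 and 6169 CPM (mice 54, 56, 59, 60 and 61). In tdT+ CTL libraries, in the same order of mice, it stood at 1526, 1535, 1723, 2626 and 1390 CPM, and in tdT+ LPS libraries at 8128, 6671, 6831, 4721 and 8266 CPM. The lowest LPS library was above the highest CTL library in both populations. Cd14 rose by 1.87 ± 0.20 on the log2 scale in tdT- dCAMs (SE, adjusted p = 1.288e-06, edgeR), a 3.66-fold difference. In tdT+ dCAMs it rose by 1.98 ± 0.20 (adjusted p = 5.996e-07), 3.93-fold. The call held in 21 of 21 alternative settings in tdT- dCAMs (log2 fold change 1.53 to 2.07) and in 20 of 20 in tdT+ dCAMs (1.86 to 2.15).

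The response of Cd14 did not differ detectably between the populations. The difference of the log2 fold changes, tdT+ minus tdT-, was 0.10 ± 0.27 (adjusted p = 1, edgeR), and the interval of 2 SE reaches from 0.74-fold to 1.56-fold. Within mice the tdT+ library had more Cd14 in 4 of 5 CTL and in 5 of 5 LPS mice. The joint fit has no mouse term. It gave a log2 difference of 0.18 ± 0.19 in CTL (adjusted p = 0.6359, edgeR) and 0.29 ± 0.19 in LPS mice (adjusted p = 1). With mouse as a fixed edgeR term the difference was 0.18 ± 0.13 in CTL and 0.27 ± 0.13 in LPS mice, and neither was called. By Pearson correlation of log2 CPM over the 20 libraries, the genes most like Cd14 among the 5823 well-measured ones were Cd47 (r = 0.96), Sod2 (r = 0.96) and Aoah (r = 0.95). Cd47 encodes the ligand of SIRP-alpha, Sod2 the mitochondrial superoxide dismutase, and Aoah the enzyme that removes acyl chains from LPS. These libraries share the 2 treatments and their depths, so that the r is a description only.

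Ly96 (chr1:16688051-16709611, plus strand, GENCODE M21 on GRCm38), whose protein holds the lipid, lay lower in LPS libraries. It was measured at 72.2, 83.0, 75.4, 116 and 134 CPM in tdT- CTL libraries (mice 174, 175, 177, 178 and 179) and at 46.8, 55.1, 54.5, 50.3 and 50.6 CPM in tdT- LPS libraries (mice 54, 56, 59, 60 and 61). In tdT+ libraries it was measured at 57.3, 95.6, 58.0, 76.3 and 93.8 CPM in CTL and at 51.5, 44.7, 57.0, 41.0 and 51.7 CPM in LPS mice. No LPS library reached its CTL group in either population, although the tdT+ gap was narrow, 57.0 against 57.3 CPM. The log2 fold change was -0.90 ± 0.29 in tdT- dCAMs, with an adjusted p of 0.04213 (edgeR), and failed the call on size. It was -0.63 ± 0.28 in tdT+ dCAMs (adjusted p = 0.2198). Among 21 alternative settings for tdT- dCAMs Ly96 was called in 1, the fit without mouse 174 (log2 fold change -1.01), and in 0 of 20 for tdT+ dCAMs.

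Per kilobase of merged exons, Cd14 outnumbered Ly96 in all 20 libraries. The ratio of Cd14 to Ly96 CPM per kilobase was 6.07 to 14.2 in tdT- CTL (median 9.85) and 8.73 to 20.3 in tdT+ CTL libraries (median 15.7). In LPS libraries it was 52.2 to 71.9 in tdT- (median 66.5) and 67.9 to 94.3 in tdT+ dCAMs (median 87.9). The CTL and LPS ranges of this ratio were far apart in both populations, since Cd14 stood higher and Ly96 lower after LPS.

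**Figure D2:**
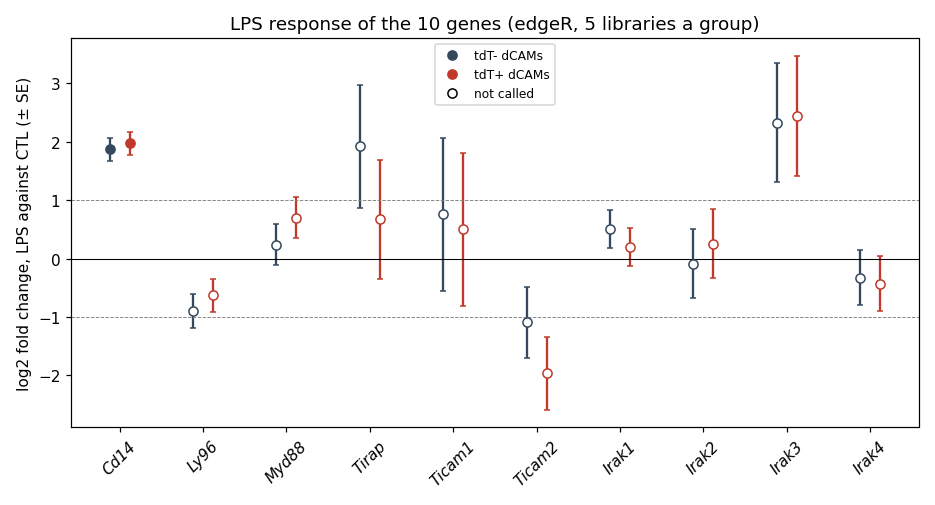
Log2 fold change of LPS against CTL (vertical axis, bars are 1 SE) for each gene in tdT- and tdT+ dCAMs, 5 libraries a group; filled points were called and dashed lines mark an absolute log2 fold change of 1. Cd14 alone was called (1.87 and 1.98), Irak3 has the largest estimates (2.33 and 2.45) with an SE over 1, and Ticam2 the lowest (-1.09 and -1.97).

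Of the 4 TIR adaptors, Myd88 had the most reads. Its levels were 78.1, 174, 77.5, 251 and 357 CPM in tdT- CTL and 194, 190, 248, 248 and 224 CPM in tdT- LPS libraries, mice in the order above. In tdT+ libraries they were 161, 179, 97.2, 119 and 78.0 CPM in CTL and 229, 150, 256, 193 and 201 CPM in LPS mice. The tdT- LPS values fell inside the wide tdT- CTL range, and in tdT+ dCAMs the groups overlapped in the LPS library of mouse 56. The log2 fold change was 0.24 ± 0.35 in tdT- (adjusted p = 0.6998, edgeR) and 0.70 ± 0.35 in tdT+ dCAMs (adjusted p = 0.2855), and no alternative setting called it. Of its merged exon length, 11.3% (290 bases) overlaps exons of Acaa1a on the other strand, and the library kit does not mark strand, so that reads of this stretch cannot be told apart.

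Tirap, the bridge to MyD88, was at or near 0 in several tdT- CTL libraries and well covered in LPS libraries. In tdT- CTL libraries it had 0, 10.2, 0.245, 29.7 and 2.22 CPM, where mice 174 and 177 are at 3 reads or fewer, against 30.0, 32.8, 26.2, 32.0 and 39.9 CPM in tdT- LPS libraries. The tdT- CTL library of mouse 178 alone reached the LPS range. The log2 fold change was 1.92 ± 1.06 (adjusted p = 0.2243, edgeR). With the 2 libraries of a mouse treated as a block (limma-voom with an estimated correlation) it was called, at 4.18 (adjusted p = 0.007778), and limma-voom with no mouse term gave the same 4.18 (adjusted p = 0.007755), so that the move went with the tool and not with the block. Without the tdT- CTL libraries of mice 174, 177 and 179 it was 0.70, the lowest of its 20 alternative values. In tdT+ dCAMs the level was 0.843 to 47.9 CPM in CTL (median 19.3) and 18.2 to 44.5 CPM in LPS libraries (median 37.1), with overlapping groups and a log2 fold change of 0.67 ± 1.02 (adjusted p = 0.8453).

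Ticam1 (TRIF) was thinly covered, and 4 libraries, all CTL, held 3 reads or fewer. It ran from 0 to 18.0 CPM in tdT- CTL (median 0.262), from 0 to 20.5 CPM in tdT+ CTL (median 6.33), from 6.72 to 15.5 CPM in tdT- LPS (median 10.4) and from 8.07 to 15.3 CPM in tdT+ LPS libraries (median 14.4). The groups overlapped in both populations, and no difference was detectable at this depth, with log2 fold changes of 0.76 ± 1.31 in tdT- (adjusted p = 0.7488, edgeR) and 0.50 ± 1.31 in tdT+ dCAMs (adjusted p = 0.9445).

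Ticam2 (TRAM) went the other way in tdT+ dCAMs. It stood at 38.5, 72.0, 85.1, 32.3 and 94.9 CPM in tdT+ CTL and at 20.2, 12.1, 15.4, 21.0 and 13.8 CPM in tdT+ LPS libraries. Every tdT+ LPS library was below every tdT+ CTL library. The log2 fold change was -1.97 ± 0.62, with an adjusted p of 0.06562 (edgeR), and was not called. It was called in 7 of 20 alternative settings, all lower, among them limma-voom with the mouse block (-1.96, adjusted p = 0.02974) and with no mouse term (-1.97, adjusted p = 0.03087), DESeq2 (-2.01, adjusted p = 0.00451) and the fit of the 10 tdT+ libraries alone (-1.97, adjusted p = 0.000983), and its adjusted p over all 20 ran from 0.0003842 to 0.1752. In tdT- dCAMs the CTL libraries split widely, at 35.8, 5.49, 80.6, 6.44 and 44.7 CPM, around LPS libraries at 23.3, 10.8, 17.0, 18.8 and 11.3 CPM.

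The 3 high tdT- CTL values of Ticam2 belong to mice 174, 177 and 179, the libraries with the most missing genes. The tdT- log2 fold change was -1.09 ± 0.61 with them (adjusted p = 0.2292, edgeR) and 1.45 without them (adjusted p = 0.04557), so that its direction rests on these 3 libraries. Leaving them out was decided after seeing the data. It keeps only mice 175 and 178 in the tdT- CTL group, at 5.49 and 6.44 CPM, so that all values without the 3 libraries rest on these mice. Within CTL mice the tdT+ library had more Ticam2 than the tdT- library of the same mouse in 5 of 5. The joint fit, which has no mouse term, gave a log2 difference of 0.90 ± 0.60 (adjusted p = 0.4035, edgeR). With mouse as a fixed edgeR term it was 1.41 ± 0.64 (adjusted p = 0.2656). Without the 3 libraries the difference with no mouse term was 3.46 (adjusted p = 0.0006668, edgeR). The difference of the LPS responses, -0.88 ± 0.85 in the full fit (adjusted p = 0.8596), was -3.43 without them (adjusted p = 0.002597). In LPS mice the populations were near each other, with more in tdT+ in 3 of 5 mice. There the log2 difference in the joint fit was 0.02 ± 0.60 (adjusted p = 1). Ticam2 shares 838 bases of exon (14.5% of its merged exon length) with Tmed7 on the same strand, and reads there cannot be told apart. Tmed7, a cargo receptor of the secretory route, had log2 fold changes of 0.35 ± 0.33 in tdT- and 0.28 ± 0.33 in tdT+ dCAMs.

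Among the adaptors compared per kilobase of merged exons, Myd88 made up most of the summed level in all 20 libraries, from 56.4% to 94.4%. The share of Ticam2 was 8.92% to 30.5% in tdT+ CTL and 2.35% to 3.95% in tdT+ LPS libraries, which did not overlap. In tdT- dCAMs it was 1.02% to 31.6% in CTL and 1.91% to 4.52% in LPS libraries.

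Of the 4 IRAK kinases, Irak3 (chr10:120141648-120202130, minus strand, GENCODE M21 on GRCm38) stood above its CTL levels in every LPS library, and Irak1, Irak2 and Irak4 were called in no setting of the LPS comparisons. Irak3 stood at 116, 25.0, 0, 118 and 0 CPM in tdT- CTL libraries and at 202, 282, 347, 176 and 296 CPM in tdT- LPS libraries. The libraries of mice 177 and 179 held 0 reads of it, which at their depth allows up to 0.368 and 0.392 CPM (3 reads). In tdT+ libraries it stood at 73.4, 53.6, 70.1, 30.1 and 64.2 CPM in CTL and at 234, 301, 366, 217 and 473 CPM in LPS mice. The lowest LPS library was above the highest CTL library in both populations, by 176 against 118 CPM in tdT- and by 217 against 73.4 CPM in tdT+ dCAMs.

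The log2 fold change of Irak3 was 2.33 ± 1.02 in tdT- (adjusted p = 0.1335, edgeR) and 2.45 ± 1.03 in tdT+ dCAMs (adjusted p = 0.1868), and neither was called in the joint fit. In tdT+ dCAMs the fit of these 10 libraries alone gave nearly the same 2.45 with an SE of 0.28 and an adjusted p of 5.582e-05. Limma-voom gave 2.54 with the mouse block (adjusted p = 0.02954), 2.55 with no mouse term (adjusted p = 0.02953) and 2.57 with quality weights (adjusted p = 0.0006095), so that 4 of 20 alternatives called it, with adjusted p from 5.582e-05 to 0.3249. In tdT- dCAMs 3 of 21 called it, limma-voom at 5.92 with the mouse block (adjusted p = 0.004498) and at 5.92 with no mouse term (adjusted p = 0.004538), and the fit without the tdT- CTL libraries of mice 174, 177 and 179 at 1.87 (adjusted p = 0.01544). The fit without these libraries was chosen after seeing the data and keeps only mice 175 and 178 in tdT- CTL. Over these alternatives the estimate ran from 1.87 to 5.92 in tdT- and from 2.26 to 2.57 in tdT+ dCAMs. Of its merged exon length 5.22% (192 bases) overlaps exons of Tmbim4 on the other strand. Other members share exon bases with a gene on the other strand too. Tirap shares 446 bases (9.05%) with Gm39318, Irak4 395 bases (7.87%) with Twf1 and Irak2 196 bases (4.44%) with Gm43963.

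Counting only whether the 2 treatments overlap, Cd14 and Irak3 were higher without overlap in tdT- dCAMs, 2 of 10 genes against 9.32% of all genes tested, and Ly96 was lower, 1 of 10 against 3.31%. In tdT+ dCAMs Cd14 and Irak3 were again higher without overlap, 2 of 10 against 10.6%, and Ly96 and Ticam2 lower, 2 of 10 against 7.19%. The 5823 well-measured genes include Cd14, Irak3, Ly96 and Ticam2. Of these 5823, 9.91% were higher and 7.09% lower without overlap in tdT- dCAMs. In tdT+ dCAMs the shares were 19.5% and 13.3%, so that the counts of the 10 genes lie near this background.

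Irak1, the X-linked kinase that passes the signal to TRAF6, had similar levels in all groups. It had 96.8, 100, 20.1, 107 and 107 CPM in tdT- CTL libraries, where mouse 177 lay far below the other 4, and 103 to 143 CPM in tdT- LPS libraries (median 113). In tdT+ dCAMs it ran from 98.6 to 133 CPM in CTL (median 108) and from 109 to 140 CPM in LPS libraries (median 132). The groups overlapped, and the log2 fold changes were 0.50 ± 0.32 in tdT- (adjusted p = 0.3073, edgeR) and 0.20 ± 0.32 in tdT+ dCAMs (adjusted p = 0.8591).

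Irak2, which sustains the late phase of the signal, ranged from 6.02 to 117 CPM in tdT- CTL (median 26.1) and from 29.1 to 51.2 CPM in tdT- LPS libraries (median 40.5). In tdT+ dCAMs it ranged from 22.0 to 63.9 CPM in CTL (median 25.8) and from 29.2 to 57.8 CPM in LPS libraries (median 38.0). In both populations the CTL library of mouse 174 was the highest of all, above every LPS library. The log2 fold change was -0.08 ± 0.59 in tdT- (adjusted p = 0.9612, edgeR) and 0.25 ± 0.59 in tdT+ dCAMs (adjusted p = 0.9309), and the tdT- value changed sign in 7 of 21 alternative settings. Irak4, the kinase that starts the cascade, ranged from 5.50 to 81.5 CPM in tdT- CTL (median 45.8) and from 29.4 to 52.6 CPM in tdT- LPS libraries (median 33.4). In tdT+ dCAMs it ranged from 35.1 to 53.9 CPM in CTL (median 51.0) and from 29.4 to 39.6 CPM in LPS libraries (median 36.7). Its log2 fold changes were -0.32 ± 0.47 (adjusted p = 0.6907) and -0.43 ± 0.47 (adjusted p = 0.7318), with overlapping groups in both.

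Per kilobase of merged exons, the make-up of the IRAK transcripts differed between treatments. Irak3 made up 52.6% to 71.0% of the summed IRAK level in tdT- LPS (median 64.8%) and 57.9% to 73.9% in tdT+ LPS libraries (median 65.5%). In CTL libraries its share was 0% to 43.1% in tdT- (median 15.8%) and 16.6% to 35.0% in tdT+ dCAMs (median 28.4%). The treatments did not overlap in either population. Irak4 had the opposite pattern in tdT+ dCAMs, at 12.8% to 21.7% in CTL and 4.13% to 8.17% in LPS libraries, and Irak1 went from 38.7% to 48.8% in CTL to 14.3% to 27.0% in LPS libraries. The summed IRAK level per kilobase was 49.4 to 72.7 CPM in tdT+ CTL and 96.6 to 174 CPM in tdT+ LPS libraries, so that the lower shares of Irak1 and Irak4 came with a larger sum.

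**Figure D3:**
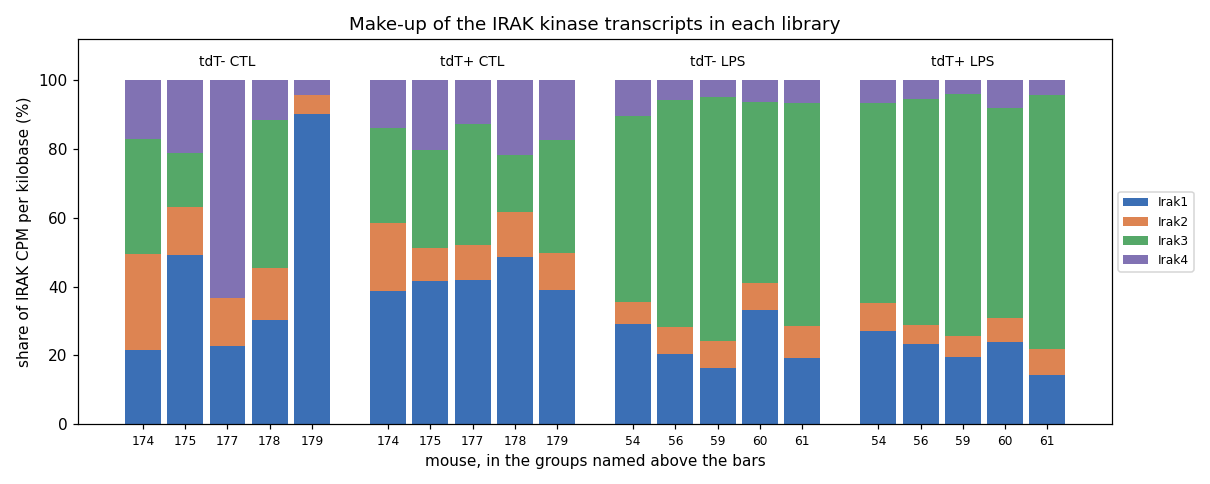
Share (%, linear axis from 0) of Irak1, Irak2, Irak3 and Irak4 in their summed CPM per kilobase of merged exons, 1 bar per library, in the 4 groups of 5 mice. Irak3 takes 52.6% to 73.9% of every LPS bar and at most 43.1% of any CTL bar, and is missing from the tdT- CTL bars of mice 177 and 179.

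Across the 20 libraries the pair of members with the highest Pearson correlation of log2 CPM was Irak2 and Irak3 (r = 0.78, and 0.86 after subtracting each group's mean), and the lowest was Cd14 and Ly96 (r = -0.74, and 0.24 after subtracting the group means). The points share depth and treatment, and both these r of Irak2 and Irak3 include the tdT- CTL libraries with missing genes. In the LPS libraries alone, after subtracting the group means, r was 0.81 for Irak2 and Irak3 and 0.71 for Cd14 and Ly96.

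The bases before the transcription start are shown for Irak2 and Irak3, the 2 members that varied together, and for Irak1 and Myd88, where a searched motif was found. RefSeq promoters (build GRCm38.p6) were at hand for 7 of the 10 genes, with 10 starts in all, and the 250 bases before each start were searched on both strands for 5 motifs. These were the kappaB consensus, the interferon-stimulated response element core, the AP-1 site TGANTCA, the PU.1 core GAGGAA and the cAMP response element TGACGTCA. Capitals mark a match to any of them other than the PU.1 core, each line reads 5′ to 3′ along the gene, and coordinates are of GRCm38.p6.
Irak3, start at the 5′ end of the gene (chr10:120202131-120202380, minus strand): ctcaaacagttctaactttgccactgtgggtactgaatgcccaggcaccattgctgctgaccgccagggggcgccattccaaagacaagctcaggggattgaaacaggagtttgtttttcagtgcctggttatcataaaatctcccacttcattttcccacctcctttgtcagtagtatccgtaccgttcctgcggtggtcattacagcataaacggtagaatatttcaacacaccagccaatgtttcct
Irak3, start inside the gene (chr10:120201598-120201847, minus strand): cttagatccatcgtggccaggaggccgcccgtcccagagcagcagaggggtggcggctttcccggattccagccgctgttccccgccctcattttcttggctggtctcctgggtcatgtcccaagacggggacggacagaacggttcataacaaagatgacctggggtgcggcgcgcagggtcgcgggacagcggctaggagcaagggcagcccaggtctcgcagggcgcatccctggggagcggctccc
Irak2 (chr6:113638217-113638466, plus strand): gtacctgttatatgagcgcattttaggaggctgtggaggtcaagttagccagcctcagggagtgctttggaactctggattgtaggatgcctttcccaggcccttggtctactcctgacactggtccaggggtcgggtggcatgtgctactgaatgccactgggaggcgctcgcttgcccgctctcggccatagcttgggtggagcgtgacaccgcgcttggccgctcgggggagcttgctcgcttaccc
Irak1 (chrX:74023922-74024171, minus strand): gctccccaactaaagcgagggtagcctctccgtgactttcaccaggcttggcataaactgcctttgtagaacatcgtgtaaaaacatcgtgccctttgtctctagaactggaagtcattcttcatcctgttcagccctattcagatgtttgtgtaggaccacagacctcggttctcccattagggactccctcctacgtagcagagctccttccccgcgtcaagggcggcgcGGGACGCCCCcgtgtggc
Myd88 (chr9:119340019-119340268, minus strand): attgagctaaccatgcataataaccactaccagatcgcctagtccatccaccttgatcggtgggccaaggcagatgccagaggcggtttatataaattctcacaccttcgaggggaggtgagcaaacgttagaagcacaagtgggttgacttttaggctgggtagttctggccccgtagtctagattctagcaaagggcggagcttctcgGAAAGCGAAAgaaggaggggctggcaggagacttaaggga
The Irak1 stretch holds a kappaB match 18 bases before the start, palindromic enough to be read on both strands, and the Myd88 stretch a response element core 40 bases before it. No searched motif was found in the stretches of Irak2, Irak3, Irak4 or Tirap, and Ticam1 held 1 PU.1 core. Over the 32851 promoters of the same table, 7.25% held the kappaB consensus, 2.98% the response element core, 6.75% the AP-1 site, 23.3% the PU.1 core and 1.55% the cAMP response element. A match is a description of letters, and its absence says only that these letters are not in this window. Neither gene with a kappaB or response element match was called in these libraries.

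Between the populations, none of the 10 genes was called in the joint fit. In CTL mice 0 of the 10 genes were called between tdT+ and tdT- dCAMs, beside 4.28% of all genes, and 0 had an unadjusted p under 0.05. The log2 differences ran from -0.57 (Myd88, SE 0.35) to 1.33 (Tirap, SE 1.04), with a median of 0.17. In LPS mice 0 of 10 were called, beside 0.0301% of all genes, and 0 had an unadjusted p under 0.05. There the log2 differences ran only from -0.10 (Myd88, SE 0.35) to 0.29 (Irak3, SE 0.97). For the difference of the LPS responses 0 of 10 were called by edgeR, beside 1.26% of all genes, 0 had an unadjusted p under 0.05, and the values ran from -1.25 ± 1.45 (Tirap) to 0.46 ± 0.50 (Myd88). DESeq2 too called 0 of 10 in each of these 3 comparisons. The SE of most members leaves room for differences of this size in either direction.

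Irak3 had a higher CPM in the tdT+ than in the tdT- library in 3 of 5 CTL and 5 of 5 LPS mice, Ly96 in 1 of 5 and 3 of 5, Irak1 in 4 of 5 and 4 of 5, and Myd88 in 3 of 5 and 2 of 5. None of these was called. Dendritic cell markers also differed between the populations, with 5 markers summing to 618 to 3329 CPM in tdT- CTL against 48.2 to 77.0 CPM in tdT+ CTL, and to 262 to 638 CPM in tdT- LPS against 11.4 to 52.5 CPM in tdT+ LPS libraries. Their part in the values was not tested.

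**Figure D4:**
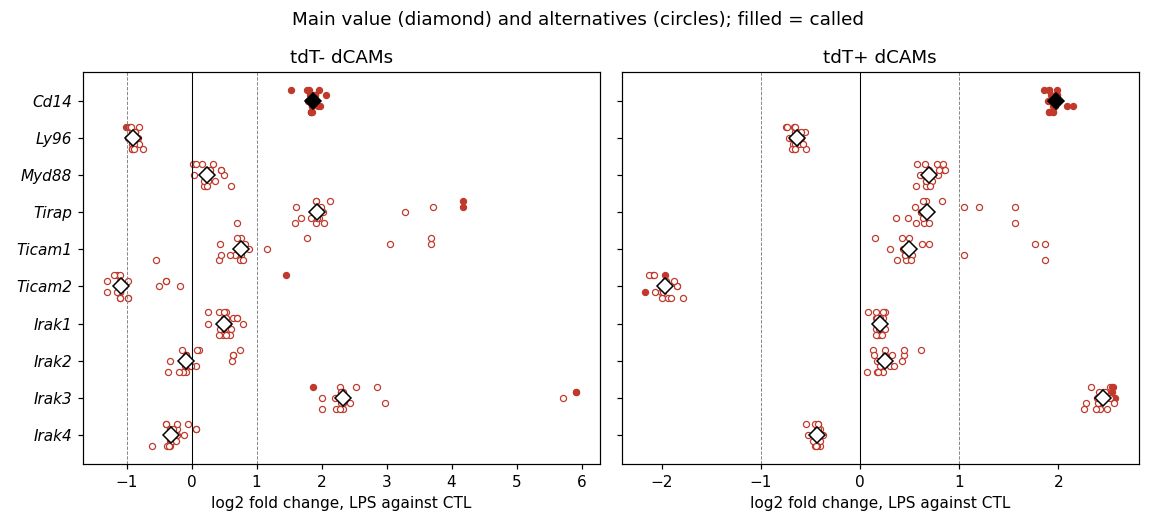
Log2 fold change of LPS against CTL (horizontal axis) of each gene in the joint edgeR fit (diamonds) and under each alternative setting (circles), in tdT- and tdT+ dCAMs; filled symbols were called, and dashed lines mark -1 and 1. Cd14 is filled throughout, Irak3 stays above 1.8 and is filled in few settings, and Ticam2 lies between -2.17 and -1.79 in tdT+ but changes side once, to 1.45, in tdT- dCAMs.

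The neighbours of these genes in the pathway were read in a list of 35, all tested: 4 receptor partners, 6 other TIR-domain proteins, 13 kinases and ligases of the MyD88 arm, 6 proteins of the TRIF arm and 6 trafficking proteins and inhibitors. After LPS 3 of 35 rose and 1 fell in tdT- dCAMs, and 3 rose and 1 fell in tdT+ dCAMs, with median log2 fold changes of 0.17 and 0.23. Of the receptor partners 1 rose (Tlr4, tdT- only by this test) and 1 fell (Ly86), and of the TIR-domain proteins 1 rose (Il1r1). Of the MyD88 arm 1 of 13 rose (Peli1, in tdT+ dCAMs by edgeR but by limma-voom with the mouse block in tdT- dCAMs only), and of the TRIF arm 1 of 6 (Ikbke) in both. In the last list Unc93b1, which escorts endosomal Toll-like receptors, had log2 fold changes of -0.54 ± 0.12 and -0.64 ± 0.12 (adjusted p = 0.004659 and 0.001459, edgeR), too small for the call, and the inhibitor Tollip of 0.49 ± 0.39 and 0.23 ± 0.39 (adjusted p = 0.4239 and 0.8757). The background for these counts is the 11.5% and 5.89% of all genes given above.

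Ly86 encodes MD-1, which holds CD180 as MD-2 holds TLR4, and fell in both populations. Its level was 1008, 726, 1276, 772 and 548 CPM in tdT- CTL and 249, 224, 208, 369 and 239 CPM in tdT- LPS libraries, mice in the order above. In tdT+ libraries it was 761, 575, 594, 715 and 618 CPM in CTL and 238, 172, 177, 282 and 158 CPM in LPS mice. The treatments did not overlap. It fell by 1.75 on the log2 scale in tdT- (SE 0.23, adjusted p = 2.351e-05, edgeR) and by 1.67 in tdT+ dCAMs (SE 0.23, adjusted p = 4.222e-05), and was called in every alternative setting of both.

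Il1r1, the interleukin-1 receptor that signals through the same MyD88 and IRAK proteins, had at most 2 reads in any of the 10 CTL libraries. It stood at 62.9, 101, 50.9, 62.6 and 160 CPM in tdT- LPS and at 73.7, 100, 69.0, 57.9 and 94.4 CPM in tdT+ LPS libraries. Set against 3 reads in the shallowest CTL library of each population (0.455 and 0.487 CPM), the LPS means were at least 192-fold higher in tdT- and at least 162-fold higher in tdT+ dCAMs (adjusted p = 7.866e-07 and 7.108e-07, edgeR). Ikbke, the kinase IKK-epsilon of the TRIF arm, had 3 reads or fewer in 8 of the 10 CTL libraries. The other 2 were the libraries of mouse 174, at 19.9 CPM in tdT- and 3.41 CPM in tdT+. In LPS libraries it stood at 258 to 433 CPM in tdT- and 301 to 535 CPM in tdT+ dCAMs, and rose in both (adjusted p = 0.004757 and 0.0007348).

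Tlr4 itself was at 28.5, 34.8, 5.77, 14.7 and 122 CPM in tdT- CTL and at 91.1, 101, 157, 124 and 131 CPM in tdT- LPS libraries. In tdT+ libraries it was at 119, 153, 171, 172 and 158 CPM in CTL and at 118, 137, 179, 214 and 171 CPM in LPS mice. The tdT- CTL libraries other than that of mouse 179 lay below the remaining groups. In tdT- dCAMs it rose by 1.56 ± 0.51 on the log2 scale (adjusted p = 0.04951, edgeR), a call kept in 6 of 21 alternative settings, while the tdT+ value was 0.08 ± 0.50 (adjusted p = 0.994). The tdT+ minus tdT- log2 difference in CTL mice was 1.91 ± 0.52 (adjusted p = 0.03634), kept in 9 of 20 settings. The difference of the 2 LPS responses was itself not called in the joint fit, and was called in 2 of 19 settings. Lbp, the LPS carrier, was at or below 3 reads in 4 libraries, all CTL, and ranged from 0 to 70.1 CPM in CTL and from 11.3 to 46.3 CPM in LPS libraries, with no call in any of the 5 comparisons. Peli1, a ubiquitin ligase that acts on IRAK proteins and the remaining called gene, averaged 116 ± 46.8 CPM in tdT+ CTL and 281 ± 94.0 CPM in tdT+ LPS libraries (SD, n = 5). It rose by 1.27 ± 0.37 on the log2 scale (adjusted p = 0.03946), kept in 9 of 20 settings, and in tdT- dCAMs the value was 0.85 ± 0.36 (adjusted p = 0.125). With the mouse block (limma-voom) Peli1 was called in tdT- dCAMs (1.05 ± 0.39, adjusted p = 0.04729) and no longer in tdT+ dCAMs (1.26 ± 0.42, adjusted p = 0.05654). Limma-voom with no mouse term gave 1.05 ± 0.40 in tdT- (adjusted p = 0.05001) and 1.26 ± 0.42 in tdT+ dCAMs (adjusted p = 0.06063), and called neither. The loss of the tdT+ call thus went with the tool and not with the block, and the 2 tdT- values lie close on either side of the threshold.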

How the data were processed

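The authors sorted the cells, prepared libraries with a low-input SMART-Seq kit, aligned reads with STAR and assigned them with featureCounts. The deposited values are raw counts per gene symbol, without unique molecular identifiers and with no strand information from the kit. The sources name mm10 and GRCm39, so no coordinate comes from the count table. Gene lengths and overlaps came from GENCODE M21 (GRCm38). Counts were tested with edgeR 4.0.16 (R 4.3.3, TMM, quasi-likelihood, a total of at least 10 reads, Benjamini-Hochberg over all genes), 1 coefficient per group. SE is the absolute log2 fold change over the root of F, the common biological coefficient of variation was 1.13, and log2 CPM used a prior count of 2.

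Both libraries of a mouse are from the same animal, so numbers pair the samples. Over 5823 well-measured genes their deviations from the group means correlated at r = 0.228 to 0.449 in LPS and -0.0046 to 0.0461 in CTL mice. The mouse block was fitted with limma-voom 3.58.1 (consensus correlation 0.0411, observation weights capped at their 0.99 quantile) for LPS and as a fixed edgeR term elsewhere. The other alternatives were DESeq2 1.42.0, RLE factors, no count filter, well-measured genes only, the compared groups only, quality weights, the title letter, thinned counts and leaving out each mouse. The fit without 3 tdT- CTL libraries and limma-voom with no mouse term (LPS comparisons only) were chosen after seeing the data. Members and gene lists were chosen with earlier results of these data known. The rule for naming partners gave Tlr4, Lbp and, in each comparison with a call, at most 3 called genes with the smallest p. Peli1 was added after its value was seen. Unc93b1, Tollip and Tmed7 were named outside this rule, and none of them was called in the joint fit. Scripts were tested on simulated data. Floors cover counting error only.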

Additional observations from a re-analysis of the deposited data

Results flagged for a closer look

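In 4 of 40 sets of 5 libraries (10 genes in 4 groups) the highest or lowest library stood apart from the other 4, by the gap to its neighbour as a share of the whole range of log2 CPM (critical value 0.71). Chance gives about 1 in 20 such sets. Irak1 in tdT- CTL libraries had 20.1 CPM in mouse 177 against 96.8 CPM in the next library (ratio 0.94). Irak4 in tdT- CTL libraries had 5.50 CPM in mouse 179 against 43.1 CPM (0.762). Tirap in tdT+ CTL libraries had 0.843 CPM in mouse 179 against 16.2 CPM (0.721). Irak2 in tdT+ CTL libraries had 63.9 CPM in mouse 174 against 28.3 CPM (0.764). All 4 are CTL libraries, and those of mice 177 and 179 in tdT- are 2 of the 3 with the largest shares of missing genes (7.04% and 14.9%), whose part in the values was not tested. No difference of the LPS responses was called for any of the 10 genes in the joint edgeR fit.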

How the results depend on the processing

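Cd14 was called in every alternative of both LPS comparisons. The 10 genes called numbered 1 in tdT- dCAMs, 3 with the mouse block (the paired analysis in limma-voom, adding Tirap and Irak3), 3 by limma-voom with no mouse term and 3 without the tdT- CTL libraries of mice 174, 177 and 179 (adding Irak3, and Ticam2 as higher), and 1 to 2 when single mice were left out (Ly96 without mouse 174). In tdT+ dCAMs they numbered 1, and 3 with the mouse block, 3 with no mouse term, 3 with the compared groups only, 3 with quality weights (each adding Ticam2 and Irak3), 2 with DESeq2, 2 with well-measured genes only, and 1 to 2 when single mice were left out (Ticam2 without mouse 178). The share of all genes called moved too. For tdT- it was 27.7% with the mouse block, 27.7% with no mouse term, 17.9% without the 3 libraries and 13.5% without mouse 174. For tdT+ it was 9.81% with the mouse block, 9.82% with no mouse term, 15.2% with the compared groups only and 19.1% with quality weights. It was 9.22% with DESeq2, 13.1% with well-measured genes only and 6.02% without mouse 178. Without the 3 tdT- CTL libraries 1 gene (Ticam2) was called between populations in CTL mice and 1 for the difference of the responses, against 0. In these 2 fits 8.36% and 4.17% of all genes were called. The mouse block changed no other call of the 10 genes, and since limma-voom with no mouse term called the same members, these moves went with the tool and not with the block. The fit of the compared groups alone could not be made for the difference, and Tirap and Ticam1 are not among the well-measured genes. RLE factors moved the median of all genes by under 0.1 in each comparison.

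Direction changed in 52 fits, and the cause was not tested. With the mouse block the log2 values were 0.64 (Irak2) and 0.066 (Irak4) for LPS in tdT- dCAMs (0.63 and 0.066 by limma-voom with no mouse term), 0.22 (Irak2) between populations in CTL mice, and -0.24 (Irak2) and -1.74 (Irak3) for the difference of the responses. With quality weights Irak2 was 0.62 for LPS in tdT- dCAMs, 0.20 and 0.0054 between populations in CTL and LPS mice, and -0.20 for the difference, where Irak3 was -3.15. Thinned counts gave Irak4 -0.037 in CTL mice, and the title letter gave Tirap -0.026 in LPS mice. Without the 3 tdT- CTL libraries LPS values in tdT- dCAMs were -0.54 (Ticam1), 1.45 (Ticam2, SE 0.49, adjusted p = 0.04557) and 0.078 (Irak2), those between populations in CTL mice -0.15 (Cd14), -0.77 (Ticam1) and -0.27 (Irak3), and the difference for Ticam1 was 1.02. With single mice left out, Irak2 ran from -0.36 to 0.75 for LPS in tdT- dCAMs. Between populations in CTL mice Irak2 ran from -0.55 to 0.12, Irak3 from -0.23 to 1.01, Irak4 from -0.26 to 0.29 and Ticam1 from -0.36 to 1.90. In LPS mice Irak1 ran from -0.0086 to 0.17, Irak2 from -0.091 to 0.070, Irak4 from -0.20 to 0.069, Tirap from -0.10 to 0.25 and Ticam2 from -0.024 to 0.12. For the difference Cd14 ran from -0.15 to 0.17, Myd88 from -0.039 to 0.76, Ticam1 from -1.63 to 0.60, Irak2 from -0.13 to 0.54, Irak3 from -0.70 to 0.52 and Irak4 from -0.38 to 0.18.

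The number of all genes called moved far more. In tdT- dCAMs it was 1907, and 4613 with the mouse block, 4604 by limma-voom with no mouse term, 978 with well-measured genes only (fewer genes tested), 891 with the compared groups only and 2910 without the 3 libraries. In tdT+ dCAMs it was 979, and 1632 with the mouse block, 1633 with no mouse term, 1533 with DESeq2, 2262 with the compared groups only and 3170 with quality weights. Between populations in CTL mice it was 712, and 1640 with DESeq2, 232 with well-measured genes, 7 with the compared groups only, 368 with quality weights, 1359 without the 3 libraries and 1352 without mouse 175. In LPS mice it was 5, and 3 with the mouse block or the title letter, 57 with DESeq2, 8 with well-measured genes, 39 with the compared groups only, 137 with quality weights and 1 to 6 without single mice. For the difference it was 209, and 83 with the mouse block, 744 with DESeq2, 2 with well-measured genes, 678 without the 3 libraries, 640 without mouse 175, 344 without mouse 178, 339 without mouse 179, and 63 to 76 without single LPS mice. Levels of Tirap, Ticam1 and Irak3 in tdT- CTL libraries are limited by libraries at 3 reads or fewer.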
